A study of Mus musculus with 16 samples.

Results

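The genes described here are 7 enzymes and transporters that build the lipid and protein barrier of the epidermis: Alox12b, Aloxe3, Abca12, Cers3, Elovl4, Ugcg and Tgm1. They were chosen by name, out of 22612 genes in the count tables, and each gene was represented by its transcript with the most Ribo-seq reads over 8 libraries. All 7 names were found. The names were drawn up with results of these data already known. The RNA differences between the cell types and after N1-AcSpd are therefore given below as descriptions and support nothing by themselves.

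The outer epidermis is sealed by stacked lipid sheets that lie between dead, crosslinked cells. Keratinocytes that leave the basal layer lengthen fatty acids to ultra-long chains, join them to sphingoid bases as ceramides, glucosylate and load them into lamellar granules, and secrete them. A linoleate ester on the omega end of these ceramides is oxidised by a pair of lipoxygenases, after which the lipid can be attached to the cornified envelope, a protein shell that transglutaminases crosslink under the plasma membrane. Inherited loss of any of several of these enzymes gives ichthyosis, a disorder of scaling skin with a leaky barrier.

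The cells came from organoids of hair follicle stem cells (HFSCs) of C57BL/6J mice, grown for 2 weeks in three-dimensional 3D–3C culture, in which stem cells and more differentiated progenitors coexist. Cells were sorted on α6 integrin and CD34 into α6+CD34− progenitors and α6+CD34+ HFSCs, from cultures left untreated or given the acetylated polyamine N1-acetylspermidine (N1-AcSpd) for the last 72 h. Every group held 2 libraries, 1 from each of 2 donor mice, for RNA-seq and for ribosome profiling (Ribo-seq, in which short RNA fragments protected by ribosomes, or footprints, are sequenced), which gives 16 libraries. The 4 groups were thus untreated progenitors, untreated HFSCs, treated progenitors and treated HFSCs, all from that strain, and the sorted cells were cultured cells, not cells taken from skin.

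RNA-seq libraries held between 21612795 and 31524062 reads on the transcripts used, and Ribo-seq libraries between 34475 and 268052 footprints on 6433 to 9840 genes. With 2 libraries per group the tests rest on few residual degrees of freedom, and 3 footprints, the level a count of 0 still allows, stand for 11.2 to 87.0 CPM (counts scaled to 1000000 per library) in the single Ribo-seq libraries. The sort was visible in the RNA: the summed level of 5 HFSC markers, Cd34 and Krt15 among them, was 1080 to 1250 CPM in untreated HFSCs against 382 to 424 CPM in untreated progenitors, and 628 to 771 CPM against 259 to 284 CPM after N1-AcSpd. In HFSCs Krt15 was the largest part, at 682 and 763 CPM untreated and 346 and 309 CPM treated. Cd34 was at 67.4 and 86.7 CPM in untreated and 89.9 and 68.2 CPM in treated HFSCs. Basal keratinocyte markers summed to between 34100 and 40600 CPM in all 8 RNA-seq libraries. The lists of fibroblast, melanocyte, immune and endothelial markers summed to at most 13.6, 2.12, 0.0378 and 1.62 CPM in any library, with Lum, Cd52, Cd207, Tyrobp and Cdh5 at 0 in every library. Of the sebocyte markers, Pparg, Awat2, Mc5r and Plin5 were each under 1 CPM on average, and the list, carried by Scd1, ranged from 43.6 to 64.4 CPM. In the RNA the replicate deviations of the treated HFSC libraries ran opposite to those of the other 3 groups, with Pearson r across 12256 genes of -0.38 to -0.63, where the other group pairs gave 0.35 to 0.67, so these libraries went against their mouse labels. No comparison of groups depends on that number, but a fit that pairs libraries by mouse does.

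In GRCm38 the lipoxygenase genes lie side by side, Aloxe3 at chr11:69125896-69149115 and Alox12b at chr11:69156989-69169792, both on the plus strand, 7873 bases apart with 0 annotated genes between them. Abca12 lies at chr1:71242276-71414910 on the minus strand, Cers3 at chr7:66743504-66823691 on the plus strand, Elovl4 at chr9:83778692-83806277 on the minus strand, Ugcg at chr4:59189257-59222833 on the plus strand and Tgm1 at chr14:55700009-55713926 on the minus strand. The kept transcripts have between 6 exons (Elovl4) and 53 exons (Abca12). Tgm1 overlaps the antisense gene Gm49067, and the RNA kit does not mark strand, so reads of the 2 genes cannot be told apart there. At most 0.325% of the 28-base words of any coding sequence, that of Cers3, occurred in a transcript of another gene. Untranslated parts of the transcripts were not searched, so the share of RNA-seq reads that match other genes was not settled.

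Because the 7 genes shared their order of groups in the RNA, as described below, the stretch just before the start site was read for the 3 with the largest change under N1-AcSpd, from RefSeq sequences of GRCm38.p6, which covered 6 of the 7 genes. Each is given 5′ to 3′ on the gene's strand, trimmed where an annotated exon begins, with capitals for a match to a searched motif. The first lies at chr11:69156822-69156988, the second at chr9:83806306-83806555 and the third at chr14:55713090-55713287. Tgm1 also has a RefSeq start at chr14:55713492, whose stretch is not shown. The Tgm1 stretch shown precedes the start at 55713088, that of the kept transcript. Other Tgm1 transcripts had the same 34 footprints and 4387 RNA-seq counts, and the kept one was taken among them by its identifier. The counts therefore do not favour this start. The stretch lies downstream of the other start and was cut by annotated exons at both ends.
Alox12b: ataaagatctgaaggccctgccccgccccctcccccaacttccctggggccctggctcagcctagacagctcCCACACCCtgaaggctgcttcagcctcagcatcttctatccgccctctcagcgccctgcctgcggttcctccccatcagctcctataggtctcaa
Elovl4: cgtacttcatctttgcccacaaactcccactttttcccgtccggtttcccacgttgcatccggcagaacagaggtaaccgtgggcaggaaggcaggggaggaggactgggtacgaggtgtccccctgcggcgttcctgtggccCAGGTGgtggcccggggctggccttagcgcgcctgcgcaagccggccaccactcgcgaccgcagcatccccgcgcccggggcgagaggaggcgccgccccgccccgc
Tgm1: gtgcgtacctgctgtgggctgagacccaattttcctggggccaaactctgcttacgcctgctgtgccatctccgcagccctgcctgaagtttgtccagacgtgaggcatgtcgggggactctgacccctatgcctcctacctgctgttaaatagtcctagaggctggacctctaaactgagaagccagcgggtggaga
The capitals in Alox12b are a Klf motif (GGGNGTGG, here read on the opposite strand), which 15.9% of 32851 windows of 250 bases before a RefSeq start hold. Those in Elovl4 are an E-box (CANNTG), held by 66.2% of windows. The full windows of Abca12, Elovl4 and Alox12b held 1 E-box each, the match in Alox12b lying in its exon, and no match overlapped another. AP-1 (TGANTCA, in 6.75% of windows), Grainyhead-like (AACCGGTT, in 0.116%) and TATA box (TATAAA, in 12.4%) letters were in no window of the 6 genes. No searched motif was thus held by all 6 genes.

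In RNA, each of the 7 genes was by mean lowest in untreated HFSCs and highest in treated progenitors, with untreated progenitors and treated HFSCs between them. Alox12b, the lipoxygenase that oxidises the ceramide-bound linoleate, was the most variable. It stood at 2.93 and 3.14 CPM in the libraries of untreated progenitors, 0.777 and 1.21 CPM in untreated HFSCs, 13.1 and 14.3 CPM in treated progenitors and 2.50 and 2.94 CPM in treated HFSCs. Treated HFSCs and untreated progenitors overlapped at the edge, and all other group pairs were apart.

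Aloxe3, which turns the hydroperoxide made by Alox12b into an epoxy alcohol, varied less. Its libraries were at 3.80 and 4.73 CPM in untreated progenitors, 2.71 and 3.07 CPM in untreated HFSCs, 6.69 and 7.48 CPM in treated progenitors and 3.91 and 4.13 CPM in treated HFSCs. The ratio of the highest to the lowest library was 2.77 for Aloxe3 and 18.4 for its neighbour Alox12b.

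Elovl4, the elongase of ultra-long fatty acids, was at 14.8 and 13.3 CPM in untreated progenitors, 3.86 and 6.32 CPM in untreated HFSCs, 56.8 and 44.7 CPM in treated progenitors and 9.62 and 17.3 CPM in treated HFSCs. The treated HFSC libraries lay on either side of both untreated progenitor libraries. Cers3, the ceramide synthase that uses those fatty acids, was at 34.7 and 29.9 CPM, 22.1 and 15.7 CPM, 53.2 and 41.1 CPM, and 21.2 and 31.1 CPM in the same order of groups. The untreated and treated HFSC libraries of Cers3 overlapped.

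Ugcg, which puts glucose on ceramide, had 18 and 14.1 CPM in untreated progenitors, 12.8 and 10.3 CPM in untreated HFSCs, 25.1 and 23.0 CPM in treated progenitors and 12.2 and 15.0 CPM in treated HFSCs. Abca12, the transporter that loads glucosylceramide into lamellar granules, was at 111 and 129 CPM, 73.3 and 70.6 CPM, 167 and 193 CPM, and 110 and 98.9 CPM in the same order. Tgm1, the membrane-bound transglutaminase of the cornified envelope, was at 20.1 and 13.4 CPM in untreated progenitors, 8.74 and 6.36 CPM in untreated HFSCs, 62.9 and 39.6 CPM in treated progenitors and 11.5 and 20.9 CPM in treated HFSCs. For Ugcg the HFSC libraries overlapped between treatments, for Abca12 no treated library overlapped an untreated library of its cell type, and for Tgm1 the mouse 1 library was the higher in 3 groups and the lower in treated HFSCs.

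**Figure D1:**
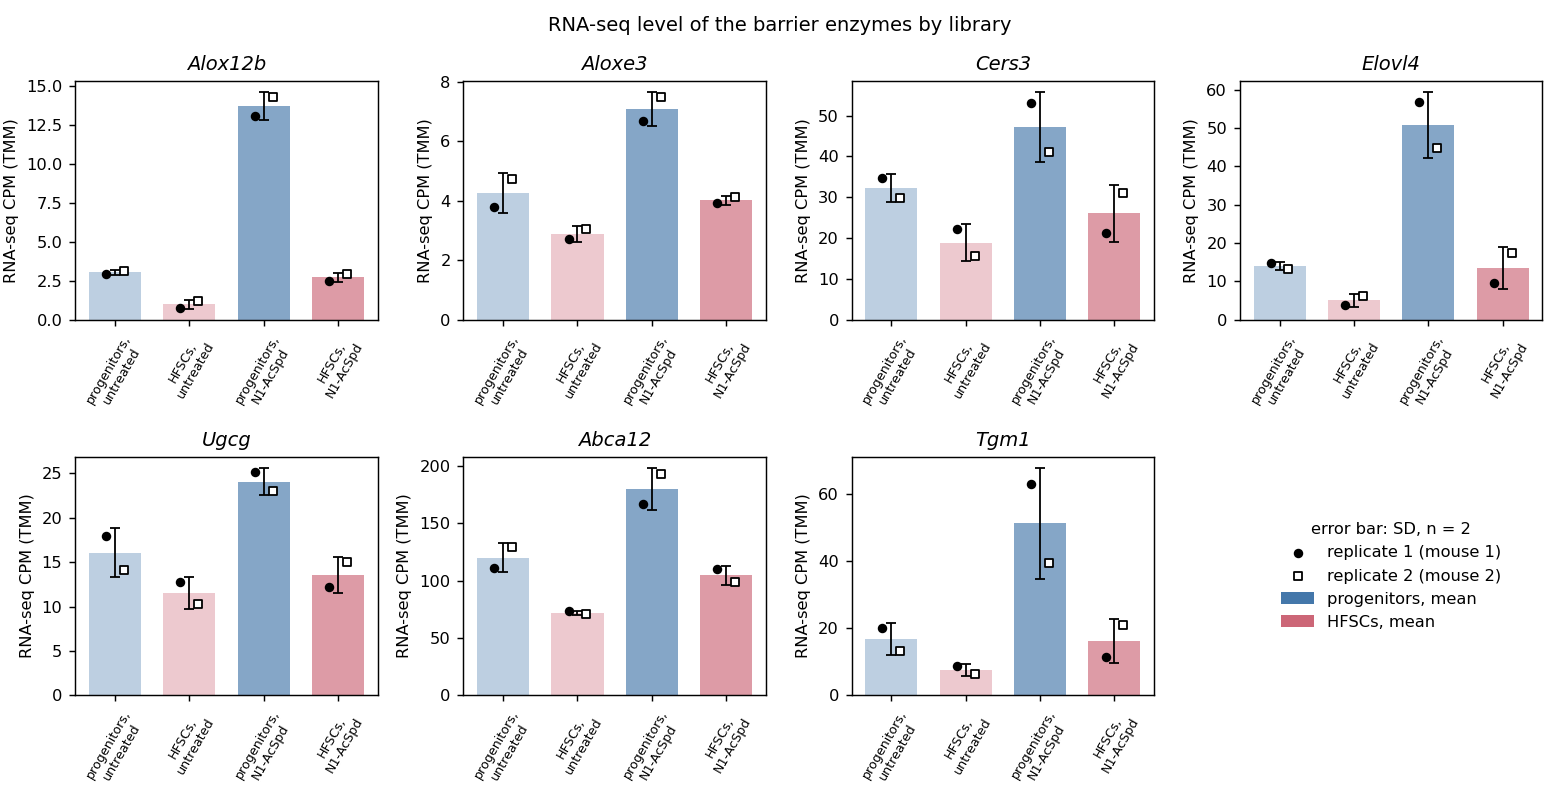
RNA-seq level in CPM (y axis, linear, from 0) of the 7 genes in each group; bars are means, error bars SD of 2 libraries, circles and squares the libraries of mouse 1 and mouse 2. In every panel the treated progenitors are highest and the untreated HFSCs lowest by mean, as for Alox12b with 13.7 and 0.994 CPM.

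Levels of different genes can be compared only per length, and the counted region is not stated, so the order below depends on the length taken. Per kilobase of whole transcript, Abca12 was by mean the most abundant in every group, from 7.87 ± 0.205 CPM per kb (SD, n = 2) in untreated HFSCs to 19.7 ± 2.00 CPM per kb in treated progenitors. In untreated progenitors Cers3 followed at 9.94 ± 1.05, then Tgm1 at 6.00 ± 1.70, Elovl4 at 4.67 ± 0.357, Ugcg at 4.0 ± 0.682, Aloxe3 at 1.41 ± 0.220 and Alox12b at 1.25 ± 0.0617 CPM per kb (SD, n = 2 each). Within that order the libraries of Tgm1, Elovl4 and Ugcg overlapped from neighbour to neighbour, as did those of Aloxe3 and Alox12b. In treated progenitors Tgm1, at 18.4 ± 5.91, and Elovl4, at 16.9 ± 2.84 CPM per kb, stood beside Abca12 and Cers3 with overlapping libraries, and Alox12b, at 5.63 ± 0.368, stood above Aloxe3, at 2.35 ± 0.185 CPM per kb (SD, n = 2). In untreated HFSCs Alox12b was the lowest at 0.409 ± 0.126 CPM per kb, below Aloxe3 at 0.956 ± 0.0843 CPM per kb with no overlap. Per kilobase of coding sequence, a scale added after seeing the data, Abca12 was in no group the first. Cers3 led in untreated progenitors with 25.7 ± 2.72 CPM per coding kb against 15.4 ± 1.61 for Abca12, as it did by mean in both HFSC groups, and Elovl4 led in treated progenitors with 54.2 ± 9.10 (SD, n = 2). By mean the lipoxygenases were the lowest of the 7 in every group on either scale.

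HFSCs and progenitors were compared first, the contrast in view when the names were drawn up. With both treatments averaged, all 7 genes were lower in HFSCs and passed an adjusted p of 0.05 when tested by quasi-likelihood in edgeR, adjusted by Benjamini-Hochberg over 14224 genes. Of all genes, 3.91% were called in that comparison and 1.80% were called lower. The fall was 3.92-fold for Alox12b (log2 -1.97, SE 0.176, adjusted p = 0.00178), 3.22-fold for Elovl4 (log2 -1.69, SE 0.215, adjusted p = 0.00622) and 2.64-fold for Tgm1 (log2 -1.40, SE 0.240, adjusted p = 0.0176). The other 4 lay between 1.57-fold for Ugcg and 1.75-fold for Cers3. With the mouse as a block, Aloxe3 and Cers3 missed the threshold at adjusted p values of 0.0509 and 0.0523, and the other 5 passed. Leaving out single libraries left between 3 and 6 of the 7, with 3 left when replicate 1 of the untreated progenitors, replicate 1 of the treated progenitors or replicate 2 of the untreated HFSCs was dropped, and 4 without replicate 1 of the treated HFSCs.

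Within the untreated cells the fitted folds were smaller, from 1.39-fold lower for Ugcg to 3.07-fold lower for Alox12b. All 7 had an unadjusted p under 0.05 on the lower side, against 4.37% of genes, and edgeR called none after adjustment, against 0.148% of genes, while DESeq2 called 4 of the 7 and 268 genes in all. Within treated cells the fall was 5.02-fold for Alox12b (log2 -2.33, SE 0.236, adjusted p = 0.0101), 3.75-fold for Elovl4 (log2 -1.91, SE 0.296, adjusted p = 0.0328) and 1.72-fold for Abca12 (log2 -0.78, SE 0.120, adjusted p = 0.0324), and these 3 were called. Of all genes 0.745% were called there, 0.443% lower, and 5.36% had an unadjusted p under 0.05 on the lower side, as all 7 genes did. With the mouse as a block only Alox12b was still called, at an adjusted p of 0.0269. Leaving out single libraries left 0 of the 7 without replicate 1 of either group, 1 without replicate 2 of the treated progenitors and 2 without replicate 2 of the treated HFSCs.

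In all 7 genes, both HFSC libraries lay under both progenitor libraries in untreated and in treated cells, a pattern that 10.1% of genes showed. The same direction within each mouse follows from that order under any pairing of libraries, so it adds no support. In bulk RNA of a sorted population, fewer differentiating cells and less RNA per cell cannot be told apart. Beside these genes, the summed level of the 6 suprabasal keratinocyte markers (Krt1, Krt10, Krtdap, Sbsn, Ivl and Lor) was 420 to 431 CPM in untreated progenitors, 220 to 302 CPM in untreated HFSCs, 650 to 876 CPM in treated progenitors and 293 to 383 CPM in treated HFSCs. In the mean of both treatments 4 of the 6 were called lower in HFSCs and 0 higher, where 1.80% of all genes were called lower. Krtdap and Lor were not called (edgeR adjusted p = 0.0774 and 0.206), and Lor did not fall in untreated HFSCs (log2 0.09, SE 0.497). Sbsn and Krtdap made up most of each sum, and all 6 markers were above 0 in every group. Their part in the result was not tested.

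Footprints and RNA were compared after N1-AcSpd to ask whether its effect on the cells involves mRNA translation. In progenitors the RNA of Alox12b rose 4.51-fold (log2 2.17, SE 0.236, adjusted p = 0.0258), the only 1 of the 7 that edgeR called, where 0.239% of all genes were called and 0.218% were called higher. Elovl4 was 3.62-fold higher (log2 1.86, SE 0.297) with an adjusted p of 0.0603, and Tgm1 3.06-fold higher (log2 1.61, SE 0.335) with an adjusted p of 0.139. Aloxe3, Ugcg, Abca12 and Cers3 were 1.66-, 1.5-, 1.5- and 1.46-fold higher with adjusted p values of 0.307, 0.369, 0.137 and 0.538. All 7 had an unadjusted p under 0.05 on the higher side, against 4.48% of genes, and in all 7 both treated libraries were above both untreated libraries, against 18.1% of genes. DESeq2 called 4 of the 7 in this comparison and 174 genes in all. The edgeR call of Alox12b was lost whenever any 1 of the 4 progenitor libraries was left out, with folds on the log2 scale between 2.12 and 2.24 and adjusted p values between 0.0862 and 0.277. The median log2 change of the 7 was 0.73 and that of all genes -0.014.

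In HFSCs the fitted changes pointed the same way and were smaller. Alox12b was 2.76-fold higher after N1-AcSpd (log2 1.46, SE 0.261, adjusted p = 0.191), Elovl4 2.67-fold (log2 1.42, SE 0.310, adjusted p = 0.263) and Tgm1 2.15-fold (log2 1.10, SE 0.344, adjusted p = 0.476). Abca12 was 1.45-fold higher (adjusted p = 0.271), Aloxe3 1.39-fold, Cers3 1.38-fold and Ugcg 1.18-fold. None of the 7 was called, nor was any of the 14224 genes (0% called), of which 1100 had an unadjusted p under 0.05. On the higher side 4 of the 7, Alox12b, Elovl4, Tgm1 and Abca12, had an unadjusted p under 0.05, against 4.30% of genes. In 5 of the 7 both treated libraries were above both untreated libraries, against 16.7% of genes, the exceptions being Cers3 and Ugcg. DESeq2 called 4 of the 7 in these libraries and 125 genes in all.

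The test of whether the response differed between the cell types gave no call for any of the 7 or for any gene (0% called). The fitted interaction was negative for all 7, from -0.71 on the log2 scale for Alox12b (SE 0.352, unadjusted p = 0.0761, adjusted p = 1) to -0.04 for Abca12 (SE 0.170), and none reached an unadjusted p of 0.05, which 0.830% of genes did. A smaller response in HFSCs was therefore not shown. In level, treated HFSCs stood near untreated progenitors, with means of 2.72 and 3.04 CPM for Alox12b, 13.5 and 14.0 CPM for Elovl4 and 16.2 and 16.7 CPM for Tgm1, a pair of groups for which no test was made.

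**Figure D2:**
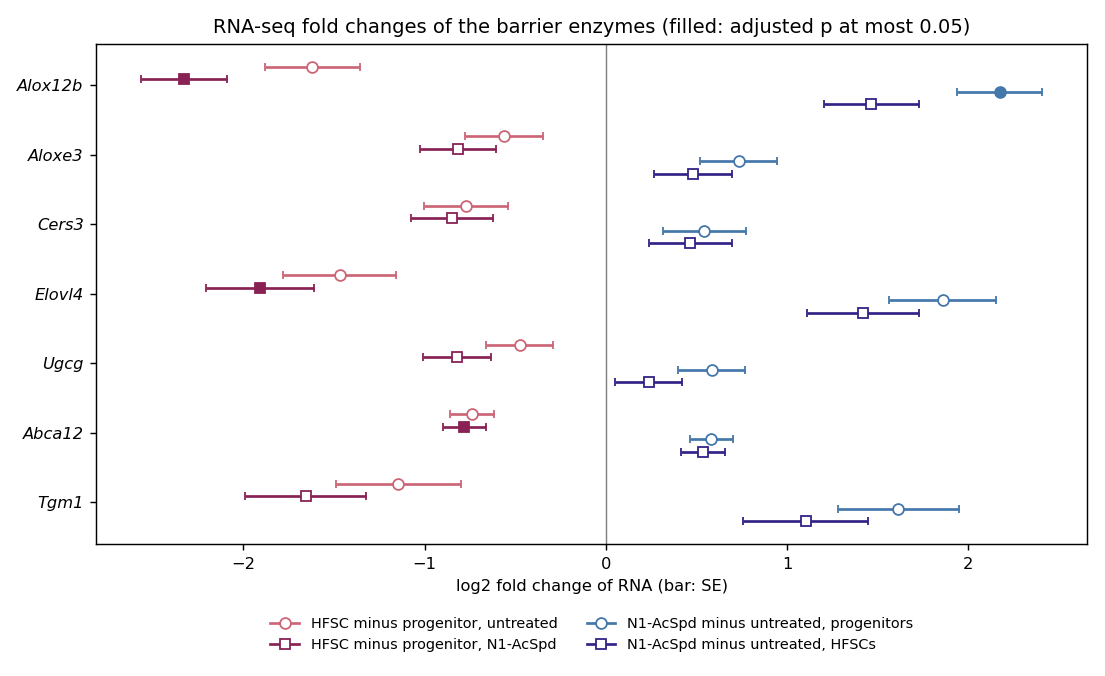
Fitted log2 fold change of RNA (x axis; bars are SE) for each gene in the comparisons of cell types and of treatments; filled symbols have an adjusted p of at most 0.05. The 4 filled symbols are Alox12b, Elovl4 and Abca12 between treated cell types and Alox12b in progenitors after N1-AcSpd.

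Footprints were few. Over all 8 Ribo-seq libraries Abca12 had 84, Elovl4 39, Cers3 36, Tgm1 34, Ugcg 18, Alox12b 10 and Aloxe3 4, and the last fell under the minimum mean of 1 count and was not tested. Relative to its RNA, a gene's share of footprints over its share of RNA reads was 2.66 for Alox12b, 2.49 for Elovl4, 1.93 for Tgm1, 1.46 for Cers3, 1.39 for Ugcg, 1.11 for Aloxe3 and 0.899 for Abca12, where the median of 8439 genes was 1.23. Ratios below come with 95% exact binomial intervals on the summed footprints, which cover counting error only. Sums weight libraries by depth, and the deepest, at 268052 footprints, was of untreated progenitors. Ratios over both treatments therefore mix the treatments unequally, and leaving out a library changes that mix. Weighting the treatments equally, the edgeR fit put progenitors 8.29-fold higher for Tgm1, 5.69-fold for Alox12b and 3.54-fold for Cers3. Their SE on the log2 scale were 1.15, 1.79 and 0.836. It gave 2.57 for Elovl4 (SE 0.768), 2.55 for Ugcg (SE 1.14) and 0.842 for Abca12 (SE 0.551). The edgeR unadjusted p values were 0.161 for Alox12b, 0.0767 for Elovl4, 0.237 for Ugcg and 0.653 for Abca12. Tgm1 and Alox12b had 0 footprints in untreated HFSCs, so their fitted folds are uncertain.

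Summed over the 7 genes, footprints took up 25 and 24.5 of every 100000 in untreated progenitors, 8.72 and 11.2 in untreated HFSCs, 56.8 and 52.4 in treated progenitors and 25.7 and 33.0 in treated HFSCs. The order of the groups by mean was lowest in untreated HFSCs and highest in treated progenitors, as it was in the RNA of each gene. Both HFSC libraries were under both progenitor libraries of the same treatment.

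Cers3 had 1 and 18 footprints in untreated progenitors, 1 and 1 in untreated HFSCs, 4 and 6 in treated progenitors and 2 and 3 in treated HFSCs. Scaled to library size, its footprints in all progenitor libraries together were 3.73 times those in HFSC libraries (interval 1.60 to 10.1), from sums of 29 and 7. The Cers3 ratio was 6.02 in untreated cells (interval 1.45 to 53.3) and 2.89 in treated cells (interval 0.899 to 10.8). Elovl4 had 2 and 5, 1 and 4, 14 and 8, and 5 and 0 footprints in the same order of groups, and the ratio of progenitors to HFSCs was 2.61 (interval 1.24 to 6.01). The Elovl4 ratio was 0.887 in untreated cells (interval 0.242 to 3.54) and 6.35 in treated cells (interval 2.35 to 21.5), and over both treatments it became 1.66 without replicate 1 of the treated progenitors and 5.11 without replicate 2 of the untreated progenitors. Tgm1 had 3 and 2, 0 and 0, 14 and 6, and 9 and 0, with a ratio of 2.50 (interval 1.13 to 6.09) that became 1.36 without replicate 1 of the treated progenitors and 5.45 without replicate 2 of the untreated progenitors. The Tgm1 ratio was 3.21 in treated cells (interval 1.40 to 8.00), and in untreated cells, with 0 footprints in HFSCs, progenitors were at least 1.06-fold higher at the limit of 3 footprints over the group. Without replicate 1 of the treated HFSCs, which held all 9 HFSC footprints of Tgm1, progenitors were at least 4.71-fold higher over both treatments. In each of these genes the treated progenitors held the most footprints for their depth by mean, and replicates of treated HFSCs were uneven, Tgm1 with 9 in mouse 1 and none in mouse 2.

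Alox12b had 0 and 1 footprints in untreated progenitors, none in either untreated HFSC library, 3 and 5 in treated progenitors and 0 and 1 in treated HFSCs. Over both treatments the ratio of progenitors to HFSCs was 8.10 with an interval of 1.12 to 355, and it was 17 and 4.20 without replicate 2 of the untreated or treated progenitors, 5.09 without replicate 1 of the treated HFSCs and at least 2.28 without replicate 2 of the treated HFSCs, which held the 1 HFSC footprint. Ugcg had 0 and 7, 1 and 0, 3 and 3, and 3 and 1, with a ratio of 2.34 (interval 0.783 to 8.39) that became 3.68 without replicate 1 of the treated HFSCs. Aloxe3 had 0 and 2 in untreated progenitors, 2 and 0 in treated progenitors and none in HFSCs, so that its footprints were at least 1.2-fold higher in progenitors, taking 3 footprints over the 4 HFSC libraries as the limit.

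edgeR called none of the 6 tested genes in Ribo-seq in any comparison. Of 8440 genes, 0.154% were called between cell types over both treatments, 0.0118% in untreated and 0.0355% in treated cells, 0.0237% for N1-AcSpd in progenitors, 0% for N1-AcSpd in HFSCs and 0% for the interaction. Between cell types over both treatments, Tgm1 (unadjusted p = 0.00809, adjusted p = 0.952) and Cers3 (unadjusted p = 0.0293, adjusted p = 1) had an unadjusted p under 0.05 on the lower side, against 2.01% of genes. After N1-AcSpd in progenitors, Elovl4 (unadjusted p = 0.0119), Tgm1 (unadjusted p = 0.0177) and Alox12b (unadjusted p = 0.0422) did so on the higher side, each with an adjusted p of 0.999, against 1.10% of genes. Their summed footprints went from 7 to 22 for Elovl4, a ratio for depth of 6.39 (interval 2.64 to 17.7), from 5 to 20 for Tgm1, a ratio of 8.13 (interval 2.96 to 27.7), and from 1 to 8 for Alox12b, a ratio of 16.3 (interval 2.18 to 722). The folds fitted by edgeR were 5.47 for Elovl4, 5.71 for Tgm1 and 13.2 for Alox12b. The mice were uneven, Tgm1 going from 75.0 to 173 CPM in mouse 1 and from 8.04 to 98.3 CPM in mouse 2. In HFSCs the ratio for Elovl4 was 0.893 (interval 0.206 to 3.88). Elovl4, Tgm1 and Alox12b also had the largest RNA changes in progenitors.

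Abca12 differed from the others in its footprints. It had 4 and 26 footprints in untreated progenitors, 2 and 9 in untreated HFSCs, 6 and 4 in treated progenitors and 18 and 15 in treated HFSCs, which for depth were 100.1 and 105 CPM, 34.9 and 71.7 CPM, 74.15 and 65.5 CPM, and 125 and 247 CPM. Treated HFSCs were thus the highest group. In treated cells both HFSC libraries were above both progenitor libraries, whereas in untreated cells both were below. The ratio of progenitors to HFSCs was 1.73 in untreated cells (interval 0.842 to 3.82) and 0.437 in treated cells (interval 0.192 to 0.908). The untreated difference was thus within counting error. How many other genes had the same order of footprint libraries as Abca12 was not counted. In HFSCs its footprints were 2.68 times higher after N1-AcSpd (interval 1.32 to 5.88, edgeR unadjusted p = 0.0321, adjusted p = 1), and with Tgm1, which had 0 footprints before and 9 after, or at least 2.68-fold more with the same limit of 3, it was 1 of 2 genes with an unadjusted p under 0.05 on the higher side, against 1.80% of genes. In progenitors the ratio of treated to untreated was 0.678 (interval 0.296 to 1.42).

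Translational efficiency, the change in footprints relative to the change in RNA, was fitted with both assays in 1 model. No gene was called in any of the 5 comparisons (0% of 8019 to 8776 genes). For Abca12, the only 1 of the 7 with a mean of at least 10 footprints, efficiency in treated cells was 4.08-fold higher in HFSCs than in progenitors (log2 2.03, SE 0.553, unadjusted p = 0.00224, adjusted p = 0.758), where 3.65% of genes had an unadjusted p under 0.05 on the higher side. In untreated cells the log2 difference was -0.11 (SE 0.564, adjusted p = 0.994). Over both treatments it was 0.96 (SE 0.412, edgeR unadjusted p = 0.0295, adjusted p = 0.806), where 263 of 8439 genes had such a p on the higher side. After N1-AcSpd in progenitors the efficiency of Abca12 changed by -1.21 (SE 0.549, unadjusted p = 0.0436, adjusted p = 0.791), where 353 of 8531 genes had such a p on the lower side. No difference in efficiency was thus shown at this depth, for Abca12 or for the other genes.

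**Figure D3:**
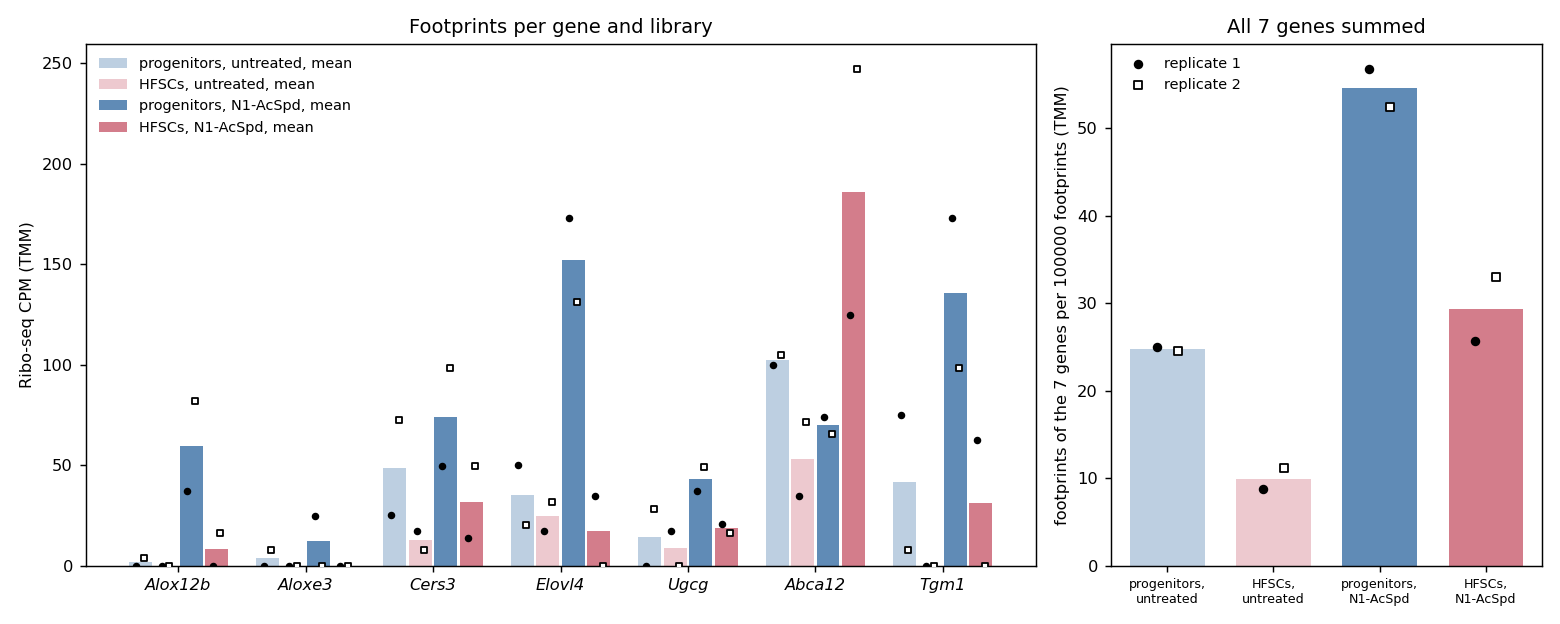
Footprints in CPM by gene (left) and summed over the 7 genes per 100000 footprints (right), both on linear axes from 0; bars are means of 2 libraries, circles mouse 1 and squares mouse 2. Abca12 is highest in treated HFSCs, at 125 and 247 CPM, while the summed footprints are highest in treated progenitors, at 56.8 and 52.4.

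The neighbouring steps of the pathway were taken from 6 lists of 91 genes, of which 84 were tested in RNA. Over both treatments 13 were called lower in HFSCs and 3 higher, with a median log2 change of -0.12, against -0.81 for the 7 genes. After N1-AcSpd in progenitors 2 were called higher and 0 lower, with a median of 0.07 against 0.73, and in HFSCs 0 were called, with a median of 0.04. These lists were also written with earlier results known, and their counts are descriptions.

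Among 9 tested genes of the lipoxygenase pathway, Sdr9c7, the dehydrogenase that acts on the product of Aloxe3, rose 4.02-fold in progenitors after N1-AcSpd (adjusted p = 0.0465) and was 3.50-fold lower in HFSCs over both treatments (adjusted p = 0.00502). Ephx3, an epoxide hydrolase, was 3.33-fold lower in HFSCs (adjusted p = 0.0307), and Alox12e, an epidermal lipoxygenase outside this route, was 3.82-fold higher (adjusted p = 0.0104). Among 19 genes of acylceramide synthesis, 0 were called after N1-AcSpd in progenitors and 2 were called lower in HFSCs. These were Pnpla1, the transacylase that adds linoleate to the ceramide, 3.77-fold lower (adjusted p = 0.00682), and Cyp4f39, the omega-hydroxylase of ultra-long fatty acids, 2.65-fold lower (adjusted p = 0.0110). After N1-AcSpd in progenitors Pnpla1 had a log2 change of 2.11 (adjusted p = 0.0614) and Acsl3, an acyl-CoA synthetase, of -0.17 (adjusted p = 0.705).

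Among 15 genes of sphingoid base and ceramide synthesis, Degs2, which makes the 4-hydroxylated sphingoid base of skin ceramides, rose 5.51-fold in progenitors after N1-AcSpd (adjusted p = 0.0334) and was 2.13-fold lower in HFSCs (adjusted p = 0.0273). Sptlc2, a subunit of serine palmitoyltransferase, was 1.22-fold lower in HFSCs (adjusted p = 0.0462) and the ceramide synthase Cers4 1.45-fold higher (adjusted p = 0.0475), and the median of the list was -0.00 in either comparison. Among 20 genes of ceramide conversion and release only B4galt6, a lactosylceramide synthase, was called between cell types, 3.38-fold higher in HFSCs (adjusted p = 0.0184). None was called after N1-AcSpd in progenitors, where the sphingomyelinase Smpd3 had a log2 change of 3.39 (adjusted p = 0.0525) and the ceramidase Acer3 of -0.19 (adjusted p = 0.738).

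Among 16 genes of lamellar granules and lipid transport 6 were called lower in HFSCs and 0 higher. They included Plbd1 (1.78-fold, adjusted p = 0.00357), the phospholipase Pla2g4e (3.22-fold, adjusted p = 0.0110) and Nipal4, whose loss causes ichthyosis (1.83-fold, adjusted p = 0.0174). After N1-AcSpd in progenitors 0 were called, with log2 changes of 1.78 for Pla2g2f (adjusted p = 0.0865) and -0.24 for Vipas39 (adjusted p = 0.616). Of 5 tested transglutaminases other than Tgm1, Tgm3, which also crosslinks the cornified envelope, was 3.12-fold lower in HFSCs (adjusted p = 0.0356), and none was called after N1-AcSpd in progenitors, where Tgm3 had a log2 change of 1.93 (adjusted p = 0.212).

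The cornified envelope precursors, among which are proteins that Tgm1 crosslinks, had larger median changes than the enzymes. Of 18 tested cornified envelope precursors 10 were called lower in HFSCs and 0 higher, with a median log2 change of -1.60, and 6 were called higher in progenitors after N1-AcSpd and 0 lower, with a median of 1.85. Ivl, the precursor involucrin, rose 2.61-fold after N1-AcSpd (adjusted p = 0.00542), Sprr1b 3.05-fold (adjusted p = 0.0245) and Lce3c 10.1-fold (adjusted p = 0.0258). Between cell types Ivl was 1.64-fold lower in HFSCs (adjusted p = 0.00246), the desmosomal protein gene Cdsn 3.83-fold lower (adjusted p = 0.00344) and Sprr1b 1.98-fold lower (adjusted p = 0.00379). Sprr and Lce genes have close relatives, so their counts are uncertain where reads match several copies. In HFSCs after N1-AcSpd none of the 18 was called, with a median of 1.33 and an adjusted p of 0.0562 for Ivl.

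**Figure D4:**
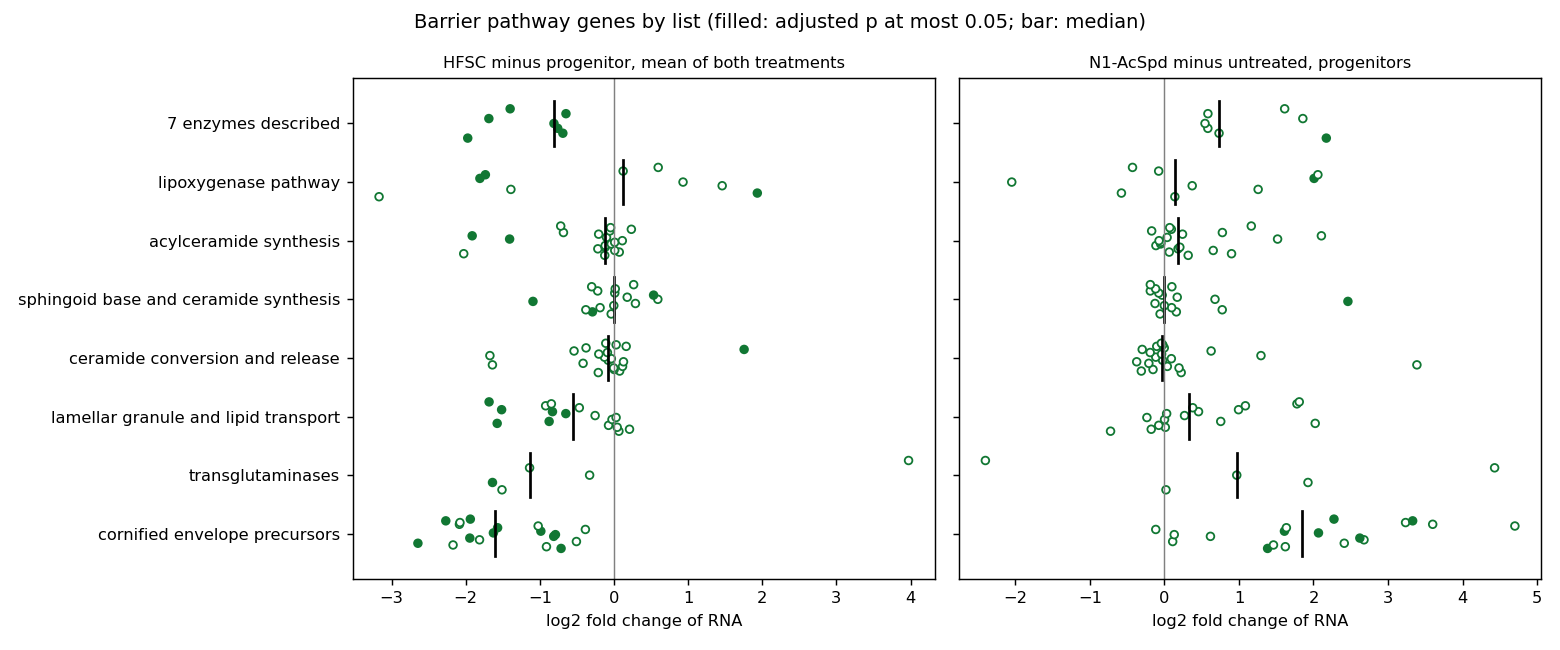
Log2 fold change of RNA (x axis) of the 7 genes and of each list, between cell types over both treatments (left) and after N1-AcSpd in progenitors (right); points are genes, filled when the adjusted p is at most 0.05, and bars are medians. The 7 genes lie on 1 side of 0 in both panels, with medians of -0.81 and 0.73, as the cornified envelope precursors do by median with -1.60 and 1.85.

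The genes whose RNA followed the mean profile of the 7 most closely, among 12249 others that averaged 10 counts or more per library, were Rbp2, a cellular retinol-binding protein (Pearson r = 0.998 over 8 libraries), the epidermal protease Klk8 (r = 0.996), the membrane protease Tmprss4 (r = 0.995), Ly6g6c (r = 0.993) and Dsc1, a desmosomal cadherin of the upper epidermis (r = 0.993). The 7 genes had r of 0.944 (Cers3) to 0.981 with the profile they made up. These libraries share donors and groups, and the values are descriptions. Dsc1 stood at 16.1 and 14.8 CPM in untreated progenitors, 5.01 and 5.75 CPM in untreated HFSCs, 65.2 and 46.4 CPM in treated progenitors and 9.83 and 17.6 CPM in treated HFSCs, which is close to the levels of Elovl4 library by library.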

How the data were processed

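RNA-seq and Ribo-seq of the same sorted cells were analysed from the deposited tables of counts per Ensembl transcript. For these counts, the authors trimmed adapters, removed rRNA and tRNA reads with Bowtie (1.2.3 in the submitters' processing notes) and aligned reads to GRCm38.p5 with STAR (2.7.3a). featureCounts is named without a role, and the counted region, strand setting and treatment of reads with several matches are not given in the sources used here. The deposited comparison tables hold Riborex fold changes and p-values, which were not used. One of them supplied gene names, and its 512208 count values equalled those of the count tables.

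Each of 22612 genes kept the transcript with the most footprints of 64026 transcripts. edgeR 4.0.16 (R 4.3.3) fitted the 4 groups of an assay (TMM factors, mean of at least 1 count, quasi-likelihood test, Benjamini-Hochberg adjustment over all tested genes, called at an adjusted p of at most 0.05). Translational efficiency was the interaction of assay and group. CPM values are TMM-scaled. DESeq2 1.42.0 was an alternative, as were RLE factors, a count minimum of 0 or of 10 on average, a mouse block, fits without the groups not compared, the transcript with the most RNA-seq counts, and leaving out each library. Fits were tested on simulated data.

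Replicate numbers mark the mouse in the labels, so they pair libraries. Deviations of same-numbered RNA-seq libraries correlated at 0.35 to 0.67, except with the treated HFSC libraries (-0.38 to -0.63), and those of Ribo-seq libraries at 0.01 to 0.10. The unpaired fit is the main result because the study's methods name no block. The 7 genes and all lists were chosen with earlier results of these data known. Named by rule were the 7 genes, up to 3 called genes per list and direction by p, or where none was called the 1 of smallest p in each direction, and the 5 genes most like the mean profile (log2(CPM + 1)). From these lists the report gives the named genes of the comparisons of cell types over both treatments and of N1-AcSpd in progenitors. Intervals and the floor of 3 counts cover counting error only.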

Additional observations from a re-analysis of the deposited data

Results flagged for a closer look

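By estimate the footprints of Abca12 moved in opposite directions after N1-AcSpd in the cell types, but the fall in progenitors was within counting error. In progenitors the log2 CPM changes were -0.43 and -0.67 in replicates 1 and 2, and in HFSCs 1.84 and 1.79. These sizes pair libraries by mouse label, which the treated HFSC libraries went against in the RNA. The closeness of the HFSC values therefore depends on the labels. Their direction does not, as the treated HFSC libraries, at 125 and 247 CPM, were both above the untreated, at 34.9 and 71.7 CPM. The fitted interaction was 2.150 on the log2 scale (edgeR, SE 1.08, unadjusted p = 0.0466, adjusted p = 1), so the difference itself failed the correction. Progenitors had 30 footprints before and 10 after treatment, a ratio for depth of 0.678 (interval 0.296 to 1.42). HFSCs had 11 before and 33 after, a ratio for depth of 2.68 (interval 1.32 to 5.88). The RNA of Abca12 was higher after treatment in both cell types by the fit, with log2 changes of 0.58 and 0.54, neither of them called. Across the alternatives the interaction ranged from 1.65 to 2.85. No cause was tested.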

How the results depend on the processing

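In RNA, the direction of the 7 genes in the comparisons of cell types and of treatments held under every alternative. The interaction turned sign in 7 fits that left out 1 library, ranging from -0.175 to 0.059 for Abca12 and from -0.380 to 0.204 for Cers3. In such fits the Ribo-seq difference of Abca12 between cell types over both treatments ranged from -0.106 (without replicate 2 of the untreated HFSCs) to 0.484, and its efficiency difference in untreated cells from -0.860 to 0.152 (without replicate 1 of the untreated HFSCs). Calls moved far more than folds, and the cause was not tested.

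With DESeq2, the RNA calls among the 7 were 4 (untreated cells), 6 (treated cells), 4 (N1-AcSpd in progenitors) and 4 (N1-AcSpd in HFSCs), and 268, 377, 174 and 125 over all genes, with 950 over both treatments. With no minimum count they were 3, 5, 3 and 1, and 167, 262, 111 and 43, with 869. With only the libraries compared the 7 had 1 call in treated cells and 2 for N1-AcSpd in progenitors, and all genes 10, 27 and, for N1-AcSpd in HFSCs, 5. A minimum mean of 10 counts gave 20 calls for N1-AcSpd in progenitors.

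With the mouse as a replicate block, all genes had 3 calls in untreated cells, 44 in treated cells and 7 for N1-AcSpd in progenitors, the 7 genes had 1 in treated cells, and the block gave 5 efficiency calls for N1-AcSpd in progenitors. It changed no other call of the 7 than those given above. In a block added after seeing the data, in which both treated HFSC libraries of RNA-seq swapped numbers, the 7 had 5, 7, 6 and 4 calls and all genes 752, 903, 441, 269 and, over both treatments, 1950.

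In Ribo-seq the calls over all genes were 2 (untreated cells), 1 (treated cells), 0 (N1-AcSpd in progenitors) and 7 (both treatments) with DESeq2, 3 and 5 in untreated and treated cells with RLE factors, 2, 1 and, over both treatments, 8 with a minimum mean of 10 counts, 2 in untreated cells with the block, and 2 and 11 with only the libraries compared. With no minimum count 1 efficiency call arose for N1-AcSpd in HFSCs.

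Leaving out single libraries gave 1 to 7 RNA calls in untreated cells, 2 to 43 in treated cells, 0 to 3 and 0 to 4 for N1-AcSpd in progenitors and HFSCs, and 192 to 459 over both treatments. Among the 7 the ranges were 0 to 2 in treated cells, 0 to 0 for N1-AcSpd in progenitors and 3 to 6 over both treatments. In Ribo-seq they were 1 to 13, 0 to 2, 0 to 13, 0 to 1 and 3 to 21 over all genes in the same order, and for efficiency 0 to 4 (untreated cells), 0 to 3 and 0 to 1 (N1-AcSpd in progenitors and HFSCs). A lone library left in a group is assumed to vary as the others do. Of 48 footprint ratios of progenitors to HFSCs without 1 library, 46 were finite and lay within the interval of the full ratio, but 8 moved by over 1.5 times. These were Alox12b (8.10), with 17 and 4.20 without replicate 2 of the untreated or treated progenitors and 5.09 without replicate 1 of the treated HFSCs, Elovl4 (2.61) and Tgm1 (2.50), with 5.11 and 5.45 without replicate 2 of the untreated progenitors and 1.66 and 1.36 without replicate 1 of the treated progenitors, and Ugcg (2.34), with 3.68 without replicate 1 of the treated HFSCs. The other 2 had no HFSC footprint left and were at least 2.28-fold for Alox12b without replicate 2, and at least 4.71-fold for Tgm1 without replicate 1, of the treated HFSCs. Leaving out a library also changes the mix of treatments in these ratios, so the shifts are not replicate spread alone. No alternative called any of the 7 in Ribo-seq or efficiency.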
